A study of Mus musculus with 6 samples.

Results

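Cd36 and 9 other genes of fatty acid uptake were followed in mouse liver that lacks both Mst1 and Mst2. They comprised the surface receptor gene Cd36, 5 fatty acid binding protein (FABP) genes, Fabp1, Fabp2, Fabp4, Fabp5 and Fabp7, and 4 fatty acid transport protein (FATP) genes, Slc27a1, Slc27a2, Slc27a4 and Slc27a5. These 10 of the 22068 listed gene symbols were selected on their family and with their differences between the 2 groups of these libraries already known. Their levels and differences between the groups are therefore a description. No p-value is printed for them, and the calls they received in the analysis of all genes are listed beside the share of all genes called, as no evidence about the members. All 10 were found and all 10 reached a mean of 1 RPKM (reads scaled by transcript length and library depth), the minimum for the analysis of all genes, which kept 11062.

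Polyadenylated liver RNA of C57BL/6 mice aged 6 weeks was sequenced in 6 libraries. Of these, 3 were controls and 3 carried the label Mst1/2 liver-dKO (dKO). Control mice were Mst1-/-; Mst2fl/fl; alb-Cre-/- and dKO mice Mst1-/-; Mst2fl/fl; alb-Cre+/+, so both groups lacked Mst1 throughout the body and no group was wild type. Cre recombinase was driven by alb, the albumin promoter, which acts in hepatocytes, and the cells that had recombined were not measured here. Mst1 and Mst2 (gene symbols Stk4 and Stk3) are kinases of the Hippo pathway, which holds back the transcriptional coactivators YAP and TAZ. Replicates are numbered in the labels, but whether each is a separate animal is not said, so a p-value measures only the spread between these libraries, which may be technical.

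Long-chain fatty acids reach hepatocytes from plasma bound to albumin. CD36, a membrane glycoprotein, binds them at the cell surface, and FATP proteins pair transport with the attachment of coenzyme A, which traps the fatty acid inside the cell. FABP proteins are small cytosolic carriers that bring fatty acids to the sites of oxidation, storage and gene regulation. Healthy hepatocytes are known for much FABP1, FATP2 (Slc27a2) and FATP5 (Slc27a5) and little CD36, while CD36 is plentiful in macrophages, capillary endothelium, adipocytes and platelets.

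Stk3, the gene deleted in dKO liver, measured 5.20 to 6.00 RPKM in control and 4.25 to 5.32 RPKM in dKO libraries, and the loss of an exon cannot be seen in 1 value for the whole gene. On the first principal component of all tested genes, which held 67.3% of the variance, control libraries lay at -35.7 to -25.4, dKO replicates 1 and 2 at 20.3 and 19.2, and dKO replicate 3 apart from them at 49.0. Estimated depth was 16.95 to 24.8 M reads per library. Hepatocyte markers were abundant, with a summed level of 44502 to 57695 RPKM in control and 38777 to 45082 RPKM in dKO libraries for Alb, Ttr, Apoa1, Cps1 and Hnf4a. Alb made up most of this sum, at 34054 to 46961 RPKM. Of the 5 markers, 1 was called lower, Ttr (limma adjusted p = 0.0413), and 0 higher, against 2.17% and 17.8% of all tested genes. Ttr, named after its values were seen, lost its call under 10 of 14 other settings. The groups did not overlap for Ttr and Hnf4a, both lower in dKO, against 6.73% of all tested genes. The labels give no sex, and Xist measured 55.7 to 93.5 RPKM in every library while Ddx3y, Kdm5d, Uty and Eif2s3y reached at most 0.027 RPKM.

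Cd36 was the member with the largest difference. The control libraries, here and later in the order of replicates 1, 2 and 3, gave 13.4, 12.2 and 16.4 RPKM, and the dKO libraries gave 80.2, 82.6 and 75.6 RPKM. Every dKO library stood far above every control library, and the dKO libraries lay close together, dKO replicate 3 included. The means were 14.0 ± 2.17 and 79.5 ± 3.54 RPKM (SD, n = 3 libraries each), a 5.67-fold difference. The log2 change of RPKM + 1, dKO minus control, was 2.43 ± 0.14 (SE), the 45th largest of the 11062 tested genes. Over 14 other settings it ran from 2.15 to 2.54. Against the median log2 change of all tested genes, 0.23, and of the 10 members, 0.40, the change of Cd36 was far above both.

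Cd36 had a higher and Fabp1 a lower mean in dKO liver, and the 250 bases before the start site of each are shown for comparison. The windows are those of RefSeq on GRCm38.p6, 1 listed start per gene, chr5:17835897-17836146 on the minus strand for Cd36 and chr6:71199629-71199878 on the plus strand for Fabp1. They are written 5′ to 3′ along the gene, with capitals at the best match to DR1, the response element of PPAR and HNF4A (2 AGGTCA half-sites in the same direction, 1 base apart).
Cd36: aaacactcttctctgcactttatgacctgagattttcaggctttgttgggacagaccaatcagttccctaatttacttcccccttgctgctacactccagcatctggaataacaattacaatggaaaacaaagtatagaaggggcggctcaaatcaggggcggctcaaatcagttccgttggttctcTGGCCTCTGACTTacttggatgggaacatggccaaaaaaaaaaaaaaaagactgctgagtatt
Fabp1: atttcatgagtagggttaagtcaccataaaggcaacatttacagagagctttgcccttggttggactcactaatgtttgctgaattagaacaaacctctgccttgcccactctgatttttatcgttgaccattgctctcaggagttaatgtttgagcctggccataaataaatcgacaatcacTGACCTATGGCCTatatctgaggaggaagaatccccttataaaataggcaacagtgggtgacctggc

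The capitals in the Fabp1 window match 11 of the 12 half-site letters, on the minus strand, from -67 to -55 relative to the start site. Those in the Cd36 window match 10 of 12, also on the minus strand, from -63 to -51. Of the 7 members with a listed window, only Cd36 and Fabp1 held a DR1 with at most 2 mismatches. The 2 windows shown are thus not a sample of the members, and the groups overlapped for Fabp1. Of 32851 RefSeq windows of this length, searched on both strands, 0.484% held a DR1 with at most 1 mismatch and 3.24% one with at most 2. A complete AGGTCA half-site, present in 14% of windows, lay at -228 to -223 for Cd36, and at -67 to -62, inside the DR1 match, and -9 to -4 for Fabp1. GGAATG, the core letters bound by TEAD factors, the DNA-binding partners of YAP, occurred in 12.6% of all windows and in neither of these. A letter match is a description of the sequence and no evidence of binding, and these libraries do not measure binding.

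Markers of cell types that carry CD36 were read in the same libraries. The 9 endothelial markers summed to 123 to 131 RPKM in control and 136 to 150 RPKM in dKO libraries, and 0 of 9 were called by limma over all genes, with 0 also at an unadjusted p under 0.05. The 11 Kupffer cell and macrophage markers summed to 155 to 316 RPKM in control and 253 to 366 RPKM in dKO libraries, with 2 of 11 called higher (Vsig4 and Lyz2), against 17.8% of all tested genes, and 0 lower by limma (4 and 1 at an unadjusted p under 0.05). Marco, a macrophage receptor gene named after its values were seen, measured 11.6, 20.4 and 5.51 RPKM in control libraries, above all dKO values of 4.79, 2.74 and 3.04 RPKM, with no call (limma adjusted p = 0.0531). Markers of lipid-associated and recruited macrophages were at low levels, summing to 1.08 to 2.90 RPKM in control and 3.03 to 6.03 RPKM in dKO libraries for 6 genes, of which Trem2 was listed at 0 in control replicates 1 and 2. The adipocyte markers Plin1 and Lep were listed at 0 in every library, and the whole list of 5 summed to at most 0.363 RPKM. Of the platelet markers, Ppbp measured 0.707 to 1.14 RPKM and Pf4 1.18 to 4.46 RPKM over all libraries, and the groups overlapped for both. The 7 cholangiocyte markers summed to 21.6 to 70.5 RPKM in control and 324 to 957 RPKM in dKO libraries. All 4 that were tested (Spp1, Sox9, Epcam and Krt19) were called higher, against 17.8% of all tested genes. Epcam was under 1 RPKM in every control library and reached the minimum for testing only through dKO libraries. Krt19 lost its call under 9 of 14 other settings. Most of the cholangiocyte sum was Spp1, the osteopontin gene, at 18.7 to 64.7 RPKM in control and 306 to 910 RPKM in dKO libraries, while Sox9 measured 1.26 to 2.96 and 11.5 to 28.5 RPKM. Of 8 genes known to be higher in female liver, as Cd36 is, 4 were called lower and 0 higher by limma, with 5 and 0 at an unadjusted p under 0.05. The shares over all tested genes were 2.17% lower and 17.8% higher. Of these calls, Cyp2b9 was lost under 5, Sult2a1 and Hamp2 each under 4 and Acot3 under 0 of 14 other settings. Of 6 tested genes known to be higher in male liver, 2 were called higher (Mup20 and C6) and 0 lower. Mup20 kept its call under all 14 other settings and C6 lost it under 8. The others, with no call, had log2 changes of -0.32 (Cyp2d9), -0.55 (Hsd3b5), -0.25 (Cyp7b1) and 1.76 (Cyp4a12a). All dKO values of Cyp7b1 lay under all its control values. Cyp4a12a was at most 0.238 RPKM in control libraries and reached the minimum for testing only through dKO libraries. All genes named here from the female-biased and male-biased lists were named after their values were seen. The part of these cell types and of sex-dependent genes in the Cd36 difference was not tested. In bulk tissue, more cells of a type and more RNA per cell cannot be told apart.

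**Figure D1:**
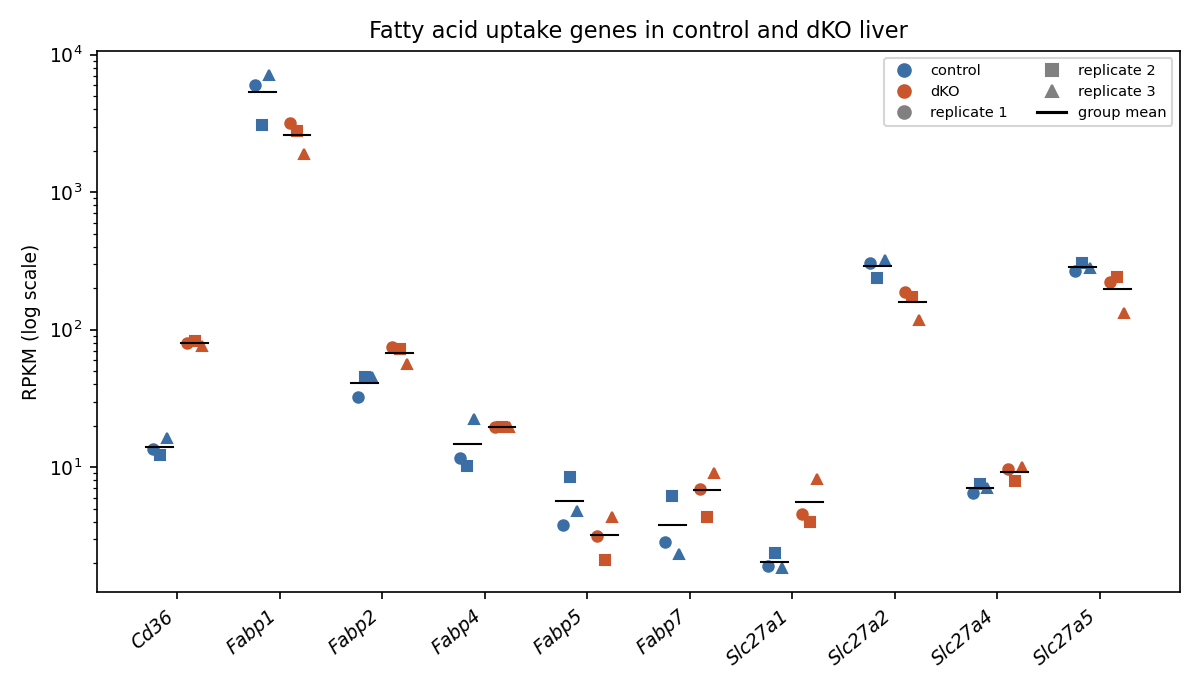
RPKM on a log axis (vertical) for the 10 genes (horizontal), with 1 point per library and a black bar at each group mean. Cd36 in dKO libraries (75.6 to 82.6 RPKM) sits clear of control libraries (12.2 to 16.4 RPKM), while for Fabp1, Fabp4, Fabp5 and Fabp7 the groups overlap.

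The FABP genes did not move together. Fabp1, the main cytosolic fatty acid carrier of hepatocytes, measured 5992, 3100 and 7064 RPKM in control libraries, against 3170, 2805 and 1880 RPKM in dKO libraries. Control replicates 1 and 3 stood well above all dKO libraries, but control replicate 2 lay just under dKO replicate 1, so the groups overlapped. The dKO mean was 48.6% of the control mean, with a log2 change of -0.99 ± 0.35 (SE), which ran from -0.40 with quantile normalization to -1.35 without control replicate 2.

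Fabp2, the intestinal form, which liver also makes, measured 32.5, 45.6 and 45.5 RPKM in control and 74.7, 72.2 and 56.4 RPKM in dKO libraries. All dKO libraries were above all control libraries, with a 1.65-fold difference of the means and a log2 change of 0.71 ± 0.18 (SE). With median-ratio scaling of the libraries the log2 change of Fabp2 was 0.43. A long noncoding RNA gene, 4933405D12Rik, overlaps Fabp2 (GRCm38.p6) and is not listed in the files, so reads of both could be counted as Fabp2. The enterocyte markers Cdx2 and Alpi were listed at 0 in every library, and all 5 enterocyte markers summed to at most 0.414 RPKM.

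Fabp4, the form of adipocytes, macrophages and capillary endothelium, measured 11.7, 10.2 and 22.5 RPKM in control and 19.6, 19.7 and 19.5 RPKM in dKO libraries. The dKO libraries were nearly identical, and control replicate 3 stood above all of them, so the groups overlapped. The log2 change was 0.46 ± 0.25 (SE), and ran from 0.19 with median-ratio scaling to 0.79 without control replicate 3. Fabp5, the epidermal form, also found in macrophages, measured 3.77, 8.45 and 4.82 RPKM in control and 3.14, 2.11 and 4.35 RPKM in dKO libraries. Its highest value was in control replicate 2, the groups overlapped, and the log2 change was -0.64 ± 0.28 (SE), from -0.36 without control replicate 2 to -0.95 with quantile normalization. Reads of Fabp5 are uncertain, because 5 processed pseudogenes, none listed in the files, match at least 336 bases of its transcript at 93.6% identity or more.

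Fabp7, the form of brain and radial glia, measured 2.88, 6.16 and 2.32 RPKM in control and 6.96, 4.37 and 9.04 RPKM in dKO libraries. Control replicate 2 lay above dKO replicate 2, and the log2 change was 0.74 ± 0.33 (SE), from 0.45 with quantile normalization to 1.07 without control replicate 2. The glial marker Sox10 was at most 0.0151 RPKM in every library. Among the 3 control libraries, replicate 2 thus held the lowest Fabp1 and the highest Fabp5 and Fabp7 values.

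By the sign of the log2 change alone, the FATP genes divided into 2 pairs. Slc27a2 encodes FATP2, which activates long and very long chain fatty acids in hepatocytes. It measured 306, 239 and 319 RPKM in control and 188, 172 and 118 RPKM in dKO libraries. All dKO libraries were lower than all control libraries, the dKO mean was 55.4% of the control mean, and the log2 change was -0.87 ± 0.22 (SE). Slc27a5 encodes FATP5, a liver protein that also attaches coenzyme A to bile acids. It measured 266, 306 and 282 RPKM in control and 223, 242 and 131 RPKM in dKO libraries, again with no overlap. The log2 change of Slc27a5 was -0.56 ± 0.24 (SE), and -0.29 without dKO replicate 3, its lowest library. A long noncoding RNA, Gm26697, shares 421 identical bases with the Slc27a2 transcript, so some reads could belong to either.

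Slc27a1 encodes FATP1, known from muscle and adipose tissue. It measured 1.92, 2.38 and 1.86 RPKM in control and 4.596, 3.99 and 8.14 RPKM in dKO libraries. All dKO libraries were higher, with the highest value in dKO replicate 3, a 2.72-fold difference of the means and a log2 change of 1.06 ± 0.23 (SE). Slc27a4 encodes FATP4, known from intestine and skin. It measured 6.53, 7.60 and 7.10 RPKM in control and 9.72, 7.86 and 10.01 RPKM in dKO libraries, where the lowest dKO library lay just above the highest control library. The log2 change of Slc27a4 was 0.33 ± 0.13 (SE), little above the 0.23 of the median tested gene, and with quantile normalization it was 0.08.

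The window before the start of Slc27a2 (RefSeq, GRCm38.p6, chr2:126552774-126553023, plus strand) is shown beside those of Cd36 and Fabp1 because Slc27a2 was the member called lower. It held no DR1 with at most 2 mismatches, and its capitals mark a half-site on the minus strand at -220 to -215.
Slc27a2: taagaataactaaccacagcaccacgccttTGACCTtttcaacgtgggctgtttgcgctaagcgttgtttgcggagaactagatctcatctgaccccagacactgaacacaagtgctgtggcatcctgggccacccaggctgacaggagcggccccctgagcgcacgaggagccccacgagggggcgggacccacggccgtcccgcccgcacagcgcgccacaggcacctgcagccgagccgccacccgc

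Promoter windows of 7 members, 9 in all because Slc27a1 has 3 listed starts, were searched in the same way. A DR1 match was found for Cd36 and Fabp1, and GGAATG for Slc27a1, at -212 to -207 of 1 start.

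In the analysis of all genes, calls were made at a limma adjusted p under 0.05. By this rule 3 of 10 members were called higher (Cd36, Fabp2 and Slc27a1) and 1 was called lower (Slc27a2), against 17.8% (higher) and 2.17% (lower) over all genes. Of all calls 89.1% were higher, and 58.7% with median-ratio scaling, 63.8% with upper-quartile scaling and 56.8% with quantile normalization. Groups did not overlap for 4 members higher in dKO (those 3 and Slc27a4), against 38.3% of all tested genes, and for 2 members lower in dKO (Slc27a2 and Slc27a5), against 6.73%. Nothing is read from these counts, since the members were chosen with this contrast known. Cd36 was called under every setting tried. Slc27a1 lost its call without control replicate 1 or 3. Fabp2 lost it on leaving out control replicate 1 or 3 or dKO replicate 1 or 2, and with no filter, median-ratio or upper-quartile scaling or a replicate block. Slc27a2 lost it with no filter, with quantile normalization and on leaving out control replicate 1 or 3 or dKO replicate 2 or 3. Fabp1 and Fabp7 were called without control replicate 2, and Fabp4 without control replicate 3.

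**Figure D2:**
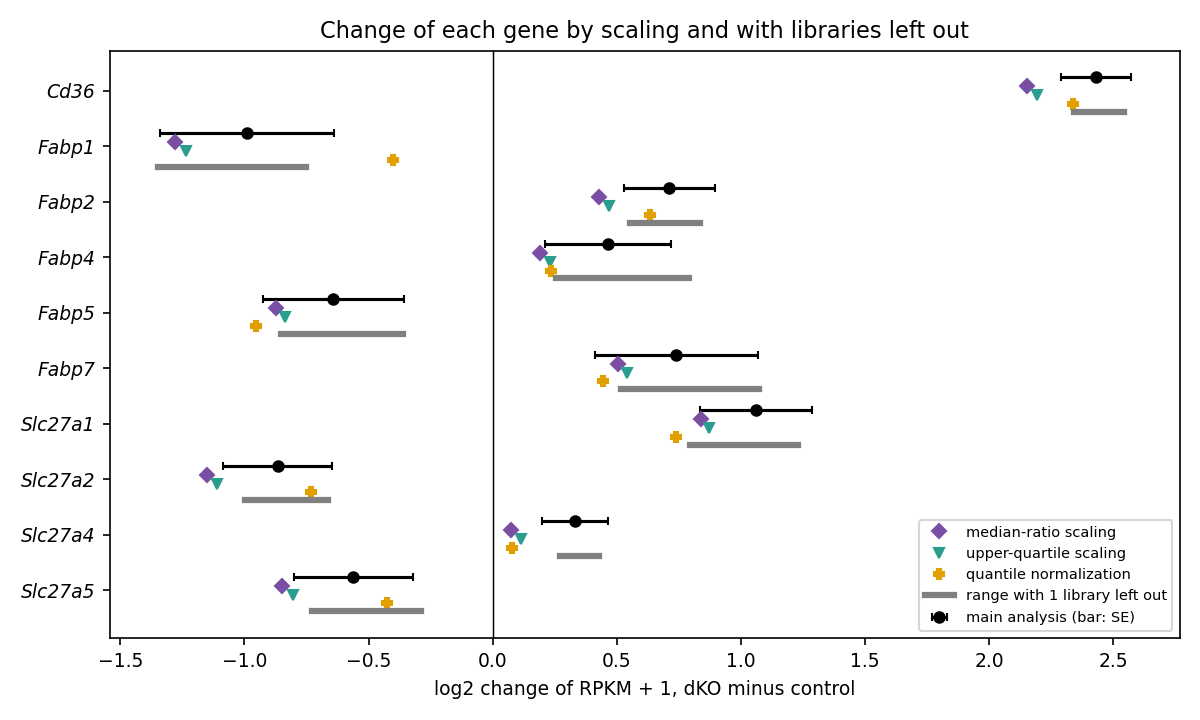
Log2 change of RPKM + 1, dKO minus control (horizontal), for each gene (vertical): black points with SE bars for the main analysis, coloured markers for 3 scalings and grey bars for the range when 1 library was left out. Cd36 stays between 2.15 and 2.54 and no gene crosses 0, while Slc27a4 comes closest to it (0.08).

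The order of the 10 genes by level changed at Cd36. In control liver the order was Fabp1, Slc27a2, Slc27a5, Fabp2, Fabp4, Cd36, Slc27a4, Fabp5, Fabp7 and Slc27a1. In dKO liver it was Fabp1, Slc27a5, Slc27a2, Cd36, Fabp2, Fabp4, Slc27a4, Fabp7, Slc27a1 and Fabp5. Cd36 overlapped with Fabp4 in control libraries and stood above all Fabp2 values in dKO libraries. Slc27a2 and Slc27a5 overlapped in both groups, as did each pair of neighbours from Slc27a4 down.

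Ratios within a library do not change when each library is multiplied by a single factor, as in median-ratio and upper-quartile scaling. Quantile normalization can change them, and the ratios here are of the values before it. Cd36 amounted to 4.39, 5.09 and 5.14 RPKM per 100 RPKM of Slc27a2 in control and to 42.6, 47.9 and 64.1 in dKO replicates 1, 2 and 3. The group means were 4.87 ± 0.42 (SD, n = 3) and 51.5 ± 11.2, with no overlap. Fabp1 made up 99.2%, 97.8% and 98.9% of the summed RPKM of the 5 FABP genes in control and 96.8%, 96.6% and 95.5% in dKO libraries. Fabp2 had 0.537%, 1.44% and 0.638% of that sum in control and 2.28%, 2.49% and 2.87% in dKO libraries, and the groups did not overlap for either share. The sum itself was 5451 ± 2049 RPKM in control and 2716 ± 672 RPKM in dKO liver (SD, n = 3), and overlapped as Fabp1 did.

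Among the 4 FATP genes, Slc27a1 and Slc27a4 together made up 1.46%, 1.80% and 1.47% of the summed RPKM in control and 3.36%, 2.78% and 6.80% in dKO libraries. Slc27a2 and Slc27a5 held nearly all of the rest, and the ratio of Slc27a5 to Slc27a2 was 1.01 ± 0.23 in control and 1.23 ± 0.15 in dKO liver (SD, n = 3), which overlapped. The 4 genes summed to 582 ± 27.6 RPKM in control and 373 ± 91.8 RPKM in dKO liver, with 267 RPKM in dKO replicate 3 and 426 RPKM in both other dKO libraries. The decline of the sum was thus that of Slc27a2 and Slc27a5.

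**Figure D3:**
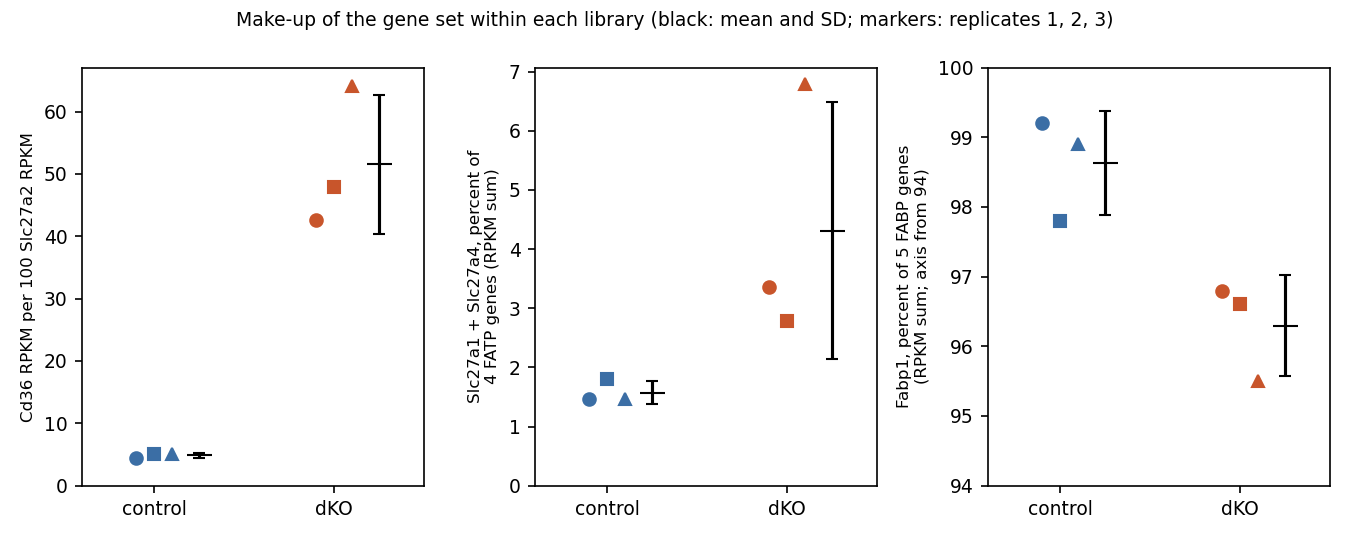
Within-library ratios (vertical, units on each axis) in control and dKO libraries, with 1 marker per library and black mean and SD: Cd36 per 100 Slc27a2, the Slc27a1 and Slc27a4 share of 4 FATP genes, and the Fabp1 share of 5 FABP genes, whose axis starts at 94. Control and dKO libraries are apart in all 3 panels, with dKO replicate 3 the most extreme. For Cd36 per 100 Slc27a2 and for the Slc27a1 and Slc27a4 share, this follows from the separation of the single genes.

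The rest of the families was scarcely present. Fabp6 and Fabp9 were listed at 0 in every library, and Fabp3 and Pmp2 at 0 in all but dKO replicate 3 (0.0641 and 0.0601 RPKM). RefSeq places Fabp5, Pmp2, Fabp9, Fabp4 and Fabp12 next to each other on 1 chromosome (GRCm38.p6), and of these 5 neighbours Fabp4 and Fabp5 were the only ones above 1 RPKM. Slc27a3 measured 0.229, 0.0702 and 0.126 RPKM in control and 0.686, 0.663 and 1.18 RPKM in dKO libraries, with no overlap, and was under the minimum for testing. Slc27a6 measured at most 0.158 RPKM in any library.

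The genes with the profile most like that of Cd36 were Wfdc2, Amotl2, C730027H18Rik, Gas6 and C9. They were the closest of 6577 genes whose mean reached 5 RPKM, by the root mean square difference of log2(RPKM + 1), each gene less its own mean over the 6 libraries. The difference was 0.13 for Wfdc2, 0.20 for Amotl2, 0.21 for C730027H18Rik and Gas6, and 0.22 for C9. Wfdc2, which encodes a secreted whey acidic protein, measured 1.47, 1.80 and 2.97 RPKM in control and 16.2, 15.4 and 14.8 RPKM in dKO libraries. Amotl2, which encodes an angiomotin of the Hippo pathway, measured 5.28 to 7.14 RPKM in control and 31.9 to 36.9 RPKM in dKO libraries, and Gas6, a ligand of the TAM receptors, 6.86 to 9.91 and 38.2 to 55.8 RPKM. C9, a complement component gene, stood at 44.9 to 61.2 and 240 to 306 RPKM. The measure covers 6 libraries in 2 groups, so the difference between the groups enters it, and the genes share that of Cd36 by selection. The mean of 5 RPKM was taken over all 6 libraries. Wfdc2 and C730027H18Rik reached it only through dKO libraries. C730027H18Rik measured 1.40 to 2.89 RPKM in control and 11.5 to 14.5 RPKM in dKO libraries.

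**Figure D4:**
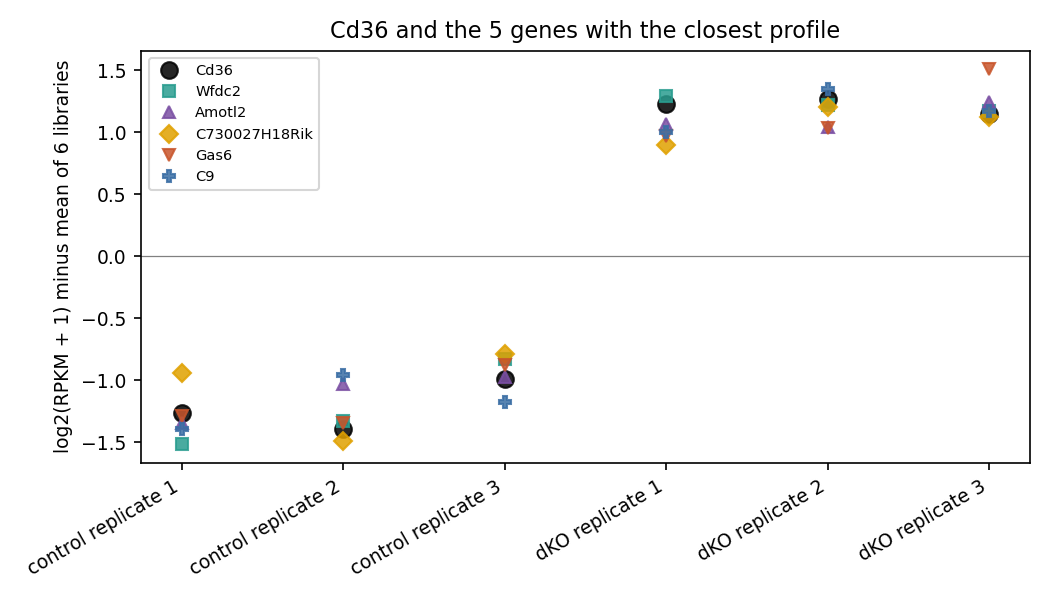
Log2(RPKM + 1) less the mean over 6 libraries (vertical) in each library (horizontal) for Cd36 and the 5 closest genes. All 6 genes lie under 0 in control and above 0 in dKO libraries, which follows from their selection by likeness to Cd36. Gas6 is highest in dKO replicate 3.

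Other surface proteins of lipid uptake were called higher in 5 of 20 cases (Mfge8, Sdpr, Cav1, Cav2 and Angptl4) and lower in 1 (Vldlr), against 17.8% and 2.17% of all tested genes. Mfge8, which encodes a secreted protein known to promote fatty acid uptake, rose from 5.94 ± 1.42 to 48.1 ± 18.4 RPKM (SD, n = 3; limma adjusted p = 0.000928). Sdpr, a caveola coat gene, rose from 14.1 ± 2.17 to 25.5 ± 2.51 RPKM (limma adjusted p = 0.00898). Cav2, a caveolin gene, rose from 3.38 ± 0.50 to 7.49 ± 2.53 RPKM (limma adjusted p = 0.0193), a call lost without control replicate 3 (0.0638) or with quantile normalization (0.0538). Vldlr, the receptor gene for very low density lipoprotein, fell from 4.56 ± 0.79 to 2.01 ± 0.30 RPKM (limma adjusted p = 0.00953), and without control replicate 2 the list had 2 decreases. Lpl and Scarb1, whose products act on lipoproteins, were not called. Lpl, the lipoprotein lipase gene, stood at 134 ± 17.8 and 98.1 ± 23.8 RPKM (limma adjusted p = 0.131), and was called lower with median-ratio (0.0357) and upper-quartile scaling (0.0424). Scarb1, a relative of Cd36, stood at 58.3 ± 4.14 and 62.7 ± 2.31 RPKM (limma adjusted p = 0.575). Angptl4, an inhibitor of lipoprotein lipase, kept its call under 5 of 14 other settings. Vldlr, Cav1 and Angptl4 were named after their values were seen.

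Of 23 transcription factors known to act on Cd36 or Fabp genes, 4 were called higher, against 17.8% of all tested genes, and 0 lower by limma (6 and 1 at an unadjusted p under 0.05), and the nuclear receptors best known for it were not among them. Ppara had means of 31.1 ± 6.33 RPKM (control) and 32.2 ± 5.48 RPKM (dKO) (SD, n = 3; limma adjusted p = 0.843), and Pparg at 5.81 ± 0.82 and 7.15 ± 1.07 RPKM (0.233). Nr1i2, which encodes the xenobiotic receptor PXR, stood at 24.1 ± 3.12 and 22.9 ± 2.37 RPKM (0.729), and Hnf4a at 133 ± 12.8 and 114 ± 5.13 RPKM (0.295). The called factors were Foxa1, Nfe2l2, Onecut1 and Cebpb. Foxa1 rose from 4.58 ± 0.72 to 10.1 ± 2.05 RPKM (limma adjusted p = 0.00818) and kept its call under 14 other settings. Onecut1, which encodes HNF6, rose from 4.17 ± 1.01 to 12.5 ± 5.33 RPKM (0.0144), a call lost without control replicate 1 (0.0596). Nfe2l2, which encodes NRF2, rose from 37.1 ± 6.27 to 64.4 ± 5.19 RPKM (0.0124), a call lost without control replicate 3 (0.0524) and with median-ratio (0.103) or upper-quartile scaling (0.0769). Cebpb was named after its values were seen, and without control replicate 1 the count was 2.

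Targets of PPAR alpha in fatty acid oxidation were called lower in 4 of 21 cases and higher in 0 by limma, with 7 and 2 at an unadjusted p under 0.05. The shares over all tested genes were 2.17% lower and 17.8% higher. Cyp4a14, an omega-hydroxylase gene, fell from 272 ± 94.8 to 39.98 ± 27.8 RPKM (SD, n = 3; limma adjusted p = 0.0215), and Acadl, an acyl-CoA dehydrogenase gene, from 112 ± 8.51 to 69.5 ± 5.57 RPKM (0.0159). Ehhadh, a peroxisomal enzyme gene, fell from 141 ± 26.9 to 81.8 ± 18.5 RPKM (0.0323). Cyp4a14 lost its call whichever control library was left out, Acadl without control replicate 1, and Ehhadh under 7 of 14 other settings, among them the loss of any library but dKO replicate 1. The 4th was Cyp4a10, named after its values were seen. The count of decreases depended on single libraries. It was 0 without control replicate 1, 2 without control replicate 2, 1 without control replicate 3, and 2 without dKO replicate 3, and 1 target was called higher without control replicate 3. Reads of Cyp4a14 and Cyp4a10 can be shared with close paralogs.

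Other lists follow the fatty acid after uptake. Of 12 genes of acyl-CoA synthesis and binding, 1 was called higher and 1 lower, against 17.8% and 2.17% of all tested genes. Acsl3 rose from 6.57 ± 0.18 to 10.2 ± 1.48 RPKM (SD, n = 3; limma adjusted p = 0.0232), a call lost on leaving out control replicate 1 or 3 or dKO replicate 3, and with each of 3 scalings. Acbd5 fell from 74.8 ± 3.69 to 52.9 ± 6.72 RPKM (0.0434), a call lost whichever of the 6 libraries was left out. Dbi, the acyl-CoA binding protein gene, named after its values were seen, measured 5372, 3137 and 3664 RPKM in control and 1931, 2107 and 643 RPKM in dKO libraries, with no overlap and no call (limma adjusted p = 0.0514). Of 13 genes of triglyceride synthesis, 1 was called higher, Lpin3, at a mean under 5 RPKM and named after its values were seen, and 0 lower, with 3 in each direction at an unadjusted p under 0.05. Lpin3 lost its call under 11 of 14 other settings, among them all 3 scalings and the loss of any library but control replicate 2. Without control replicate 2 the list had 2 calls in each direction. Of 9 genes of lipoprotein export 0 were called by limma, with 3 lower at an unadjusted p under 0.05, and 2 were called lower with median-ratio scaling.

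Among 15 genes of lipid droplets and lipolysis, 3 were called higher and 2 lower, against 17.8% and 2.17% of all tested genes. Lipa, the lysosomal acid lipase gene, rose from 122 ± 6.40 to 211 ± 5.45 RPKM (SD, n = 3; limma adjusted p = 0.00963), a call lost with median-ratio (0.0772) or upper-quartile scaling (0.0502). Plin3, a droplet coat gene, rose from 15.8 ± 2.37 to 23.4 ± 1.91 RPKM (0.0312), a call lost when control replicate 1 or any 1 of the dKO libraries was left out, and with each of 3 scalings. Hsd17b11, a droplet enzyme gene, fell from 64.8 ± 4.57 to 35.0 ± 3.69 RPKM (0.00612). Hsd17b13 (higher) and Bscl2 (lower) were the others, named after their values were seen. The 3 increases were 1 on leaving out control replicate 1 or dKO replicate 1 or 2, and 0 with median-ratio scaling. The 2 decreases were 1 on leaving out control replicate 1 or 3 or dKO replicate 2 or 3.

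Among 15 genes of bile acid conjugation and peroxisomal oxidation, the setting of Slc27a5 and Slc27a2, 1 was called higher and 3 lower. The shares over all tested genes were 17.8% and 2.17%. Slc10a1, the gene of the bile acid importer NTCP, fell from 287 ± 23.8 to 121 ± 41.1 RPKM (SD, n = 3; limma adjusted p = 0.0133). Cyp8b1, the sterol 12-hydroxylase gene, rose from 16.4 ± 12.9 to 83.0 ± 4.95 RPKM (0.0141), with control replicate 3 at 31.3 RPKM. Abcd2, a peroxisomal transporter gene, fell from 29.6 ± 3.76 to 17.9 ± 2.68 RPKM (0.0179), a call lost on leaving out control replicate 1 or 3 or dKO replicate 2 or 3. Hacl1, the third decrease, was named after its values were seen, and without control replicate 1 or 3 the list had 1 decrease. Without control replicate 2 it had 2 increases. Baat, which conjugates the bile acids that FATP5 activates, stood at 55.1, 97.2 and 67.0 RPKM in control and 106, 119 and 93.7 RPKM in dKO libraries, which overlapped, with no call.

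Of 11 ligands, partners and palmitoylation enzymes of CD36, 2 were called higher, against 17.8% of all tested genes, and 0 lower by limma (4 and 0 at an unadjusted p under 0.05). Cd9, a tetraspanin gene whose protein associates with CD36, rose from 11.8 ± 2.28 to 28.7 ± 9.14 RPKM (SD, n = 3; limma adjusted p = 0.0112). Tlr2, a coreceptor gene named after its values were seen, lost its call without control replicate 1 or 3 and with quantile normalization. Zdhhc4 and Zdhhc5, whose products attach palmitate to CD36, stood at 7.53, 6.57 and 10.3 RPKM and 15.9, 17.2 and 17.9 RPKM in control and at 10.6, 7.64 and 8.37 RPKM and 18.1, 17.8 and 19.1 RPKM in dKO libraries.

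**Figure D5:**
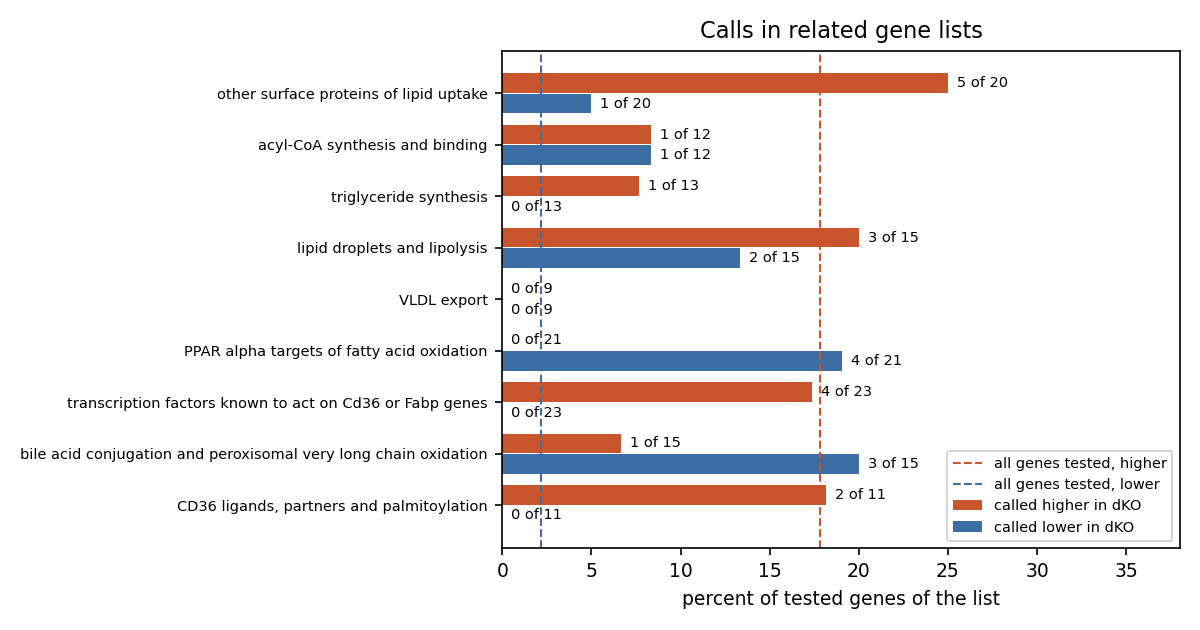
Percent of the tested genes of each list (vertical) called higher or lower in dKO liver (horizontal), with counts beside the bars and dashed lines at the share over all genes tested (17.8% higher, 2.17% lower). Other surface proteins of lipid uptake have the most increases (5 of 20). Targets of PPAR alpha have 4 of 21 decreases and 0 increases, and without control replicate 1 they had 0 decreases. Bile acid conjugation and peroxisomal oxidation has 3 of 15 decreases, and lipid droplets and lipolysis 2 of 15.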

How the data were processed

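Liver polyadenylated RNA was sequenced in 3 control and 3 dKO libraries. The authors aligned and counted the reads and deposited 1 table of RPKM values per library, on genome build mm9 per the submitters' processing notes. The aligner, the counter and the annotation are each not given in the sources used here. No header names the unit. RPKM was read from low values lying near whole multiples of 1 read per transcript length (64.2% to 70.1% within 0.15 of a whole read, where even spacing gives 30%). The same spacing gave the depth estimates, as the depth tried that gave each library its largest such share. These shares are therefore maxima, and the 30%, which holds for a depth fixed in advance, is a low yardstick for them.

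The 11062 genes averaging 1 RPKM or more were fitted on the log2(RPKM + 1) scale, which understates changes of low genes, by limma 3.58.1 (R 4.3.3) with trend and robust moderation, tested on simulated data, with Benjamini-Hochberg adjustment over all genes. The labels do not say that replicate numbers pair the samples, and none was assumed in the main fit. Correlations of deviations from the group means were -0.08, -0.10 and -0.01 for equal numbers. With 3 libraries per group these cannot exclude a pairing. Alternatives were another pseudocount, filters, scalings, moderation, a stricter threshold, a replicate block and each library left out. The members, the gene lists and the rule for naming genes were chosen with earlier results of these data known. Named genes were the members, up to 3 called genes per list with the smallest p among those averaging 5 RPKM or more, and 7 fixed genes, 1 of which is not reported here. Near-identical transcripts were sought with BLAST in GENCODE M21, and promoter windows came from RefSeq. Figures used Python 3.11.15 and matplotlib 3.10.9.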

Additional observations from a re-analysis of the deposited data

How the results depend on the processing

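All 10 members kept their direction under each of 14 alternatives that move their values, and Cd36 also its call. Of the members, 3 were called higher and 1 lower. Leaving out 1 library gave 1 to 4 higher and 0 to 2 lower, an adjusted p under 0.01 gave 1 and 0, and no filter on low values gave 0 lower. Over all genes, the 1965 higher and 240 lower calls became 873 and 614 with median-ratio scaling (58.7% of calls higher, against 89.1%), 953 and 540 with upper-quartile scaling (63.8%), 727 and 554 with quantile normalization (56.8%), and 490 and 49 at an adjusted p under 0.01. Without a filter 145 were lower. Leaving out 1 library gave 763 (control replicate 1) to 1992 higher and 90 (control replicate 1) to 241 lower calls, with 957 and 116 without control replicate 3, 1153 higher without dKO replicate 1, 151 lower without dKO replicate 2, and 988 and 126 without dKO replicate 3. Median-ratio scaling moved the median log2 change from 0.23 to -0.01. With a replicate block there were 1513 higher and 202 lower calls, and Fabp2 lost its call. Leaving out a library tests fewer samples, and the cause of the other changes was not tested. Fabp5 was called lower and Slc27a2 not called with quantile normalization. The files hold no counts, so the part of depth in the error was not tested.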
